A study of Mus musculus with 31 samples.

Results

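Voltage-gated calcium channels were described through 10 subunit genes, which are 5 pore-forming α1 genes (Cacna1a, Cacna1b, Cacna1c, Cacna1e and Cacna1h), 3 α2δ genes (Cacna2d1, Cacna2d2 and Cacna2d3) and 2 β genes (Cacnb3 and Cacnb4). They are the rows of both deposited count tables whose Ensembl identifier carries one of these symbols in the GENCODE M21 mouse annotation, and make up 10 of the 55536 genes listed. All 10 were found in both tables. The study pulled down tagged ribosomes from mouse sensory neurons and sequenced the RNA that came with them (translating ribosome affinity purification). Cre mice carried Nav1.8-Cre;L10a-eGFP-fl/fl, in which Cre recombinase, driven with the sensory neuron sodium channel Nav1.8, switches on a green fluorescent form of ribosomal protein L10a. Control mice carried L10a-eGFP-fl/fl without Cre, so their libraries hold RNA that the pulldown recovered with no tagged ribosome. The tissue for central axons was lumbar dorsal root plus spinal cord, that for peripheral axons was sciatic nerve, and that for somas was lumbar dorsal root ganglion. Central axons were processed with one set of somas (batch 1) and peripheral axons with another (batch 2), in both genotypes. That makes 8 groups and 31 libraries, with n = 4 in each group and n = 3 in the controls of peripheral axons. The labels call them biological replicates and do not say whether a replicate was 1 mouse or a pool, and age, sex and strain are not given in the sources used here. The central axon tissue included spinal cord, so the RNA of spinal neurons and glia was in the lysate.

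A voltage-gated calcium channel opens on depolarisation through its α1 subunit, while a β subunit on the inner side and an α2δ subunit on the outer side help the channel reach the membrane and stay there. In sensory neurons the N-type and P/Q-type channels at central terminals trigger transmitter release onto the spinal cord, L-type channels couple activity to gene expression, and T-type channels set excitability near rest. The α2δ proteins encoded by Cacna2d1 and Cacna2d2 bind the analgesic gabapentin.

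Library totals lay between 3.60 M and 19.6 M counts, so 3 counts, taken as the smallest detectable amount, stood for 0.153 to 0.833 CPM (the gene's counts scaled to a common library total). Intervals for a single library are Wilson 95% intervals and cover counting error only. Scn10a, which encodes Nav1.8, lay between 45.1 and 421 CPM in the central axon Cre libraries and between 0 and 29.9 CPM in their controls, but its difference did not pass the test (log2 fold change 4.52, SE 1.72, edgeR quasi-likelihood adjusted p = 0.818). In somas Scn10a averaged 410 CPM in Cre and 283 CPM in control libraries of batch 1, and 364 and 370 CPM in batch 2. The batch 1 soma controls held 4934 to 7889 genes with 10 or more counts, against 12502 to 14015 in the Cre somas. Batch 1 soma control 3 had a TMM scaling factor of 0.0547 against the Cre somas, and its Spearman rho was 0.794 to 0.808 with the Cre somas and 0.557 to 0.667 with the other controls. Batch 2 soma control 5 was likewise nearer to the Cre somas (0.947 to 0.952) than to the other controls (0.790 to 0.893). In peripheral axons Scn10a lay between 42.1 and 304 CPM in Cre and between 0 and 127 CPM in control libraries. Nociceptor markers, summed over 9 genes, came to 1710 to 8840 CPM in central axon Cre libraries and 431 to 1390 CPM in their controls. The sums of Cre and control libraries overlapped in peripheral axons (1110 to 4560 and 536 to 3640 CPM) and in batch 1 somas (7290 to 11900 and 4730 to 10700 CPM). The pulldown was from whole tissue, so fewer cells of a type and less RNA per cell cannot be told apart.

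**Figure D1:**
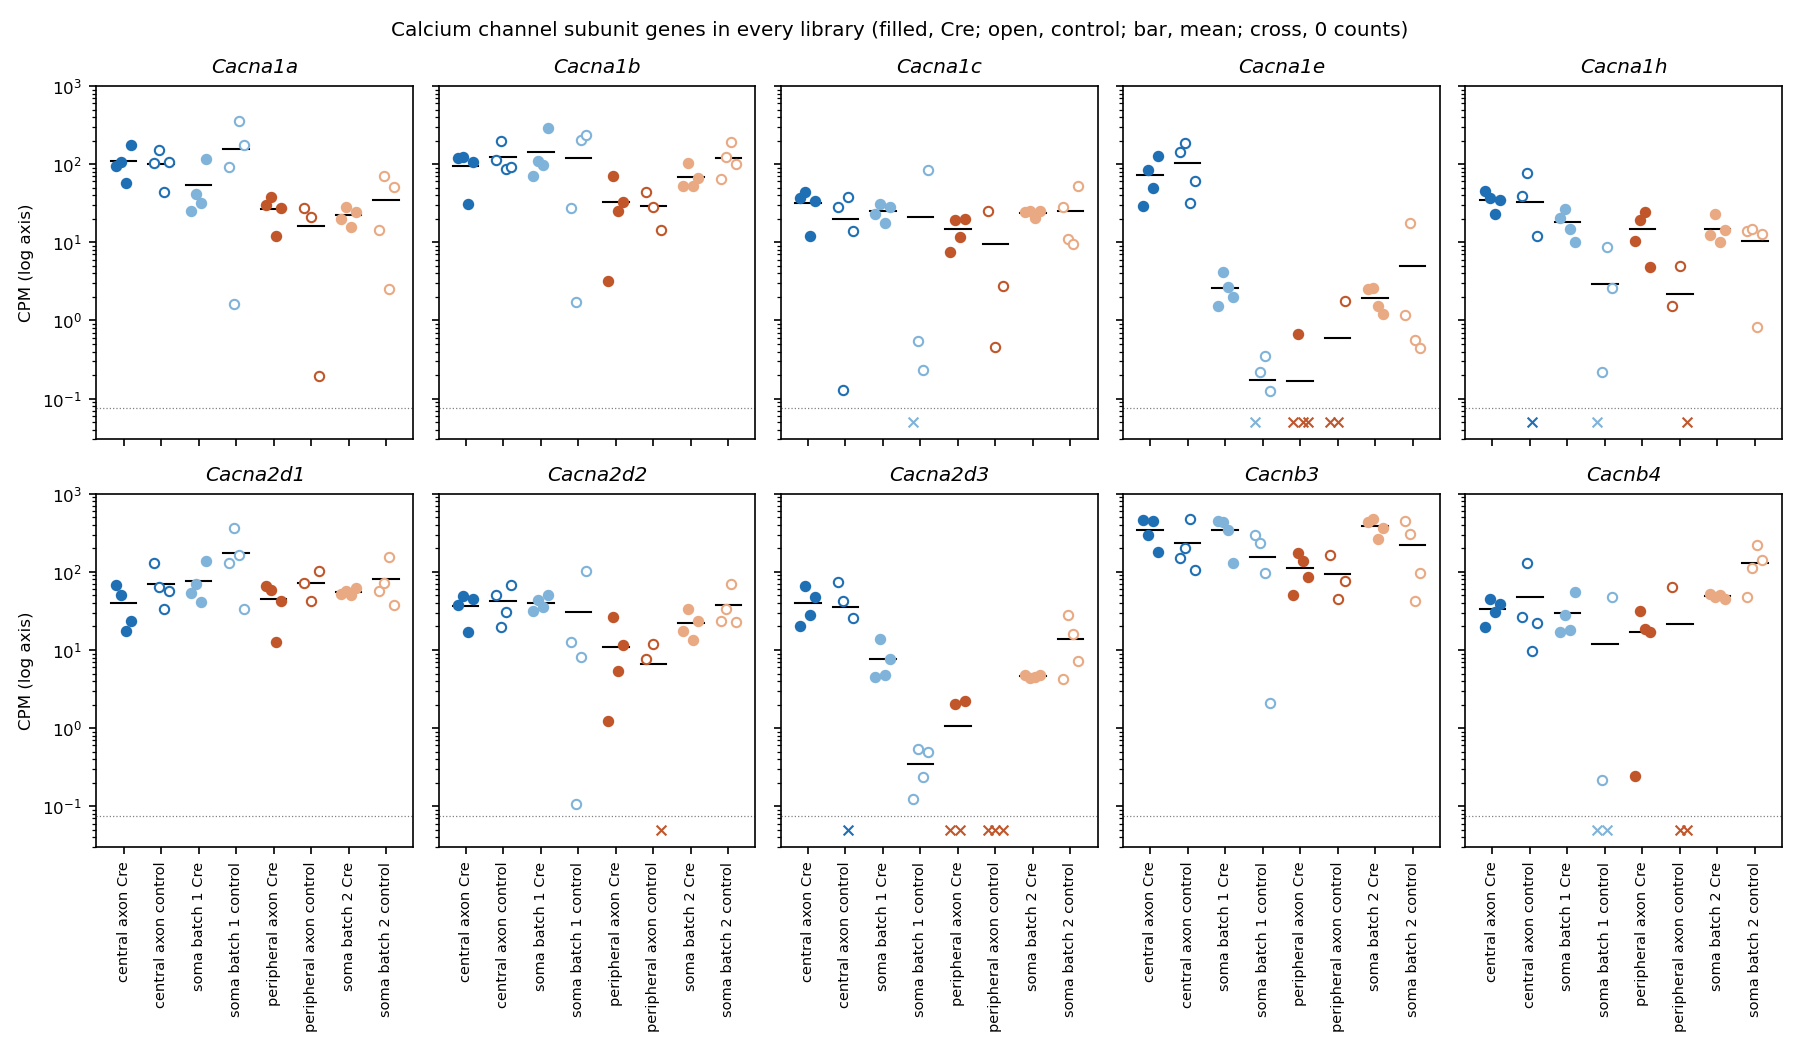
Level of each of the 10 genes in CPM on a log axis, one point per library, with filled points for Cre, open points for control, a bar at the group mean and a cross below the dotted line for 0 counts. Cacna1e and Cacna2d3 stand out: central axon libraries reach 126 and 65.4 CPM in Cre, against at most 4.19 and 13.9 CPM in the Cre somas of batch 1. For both genes the highest central axon control lies above the highest central axon Cre library.

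Against the Cre somas of the same batch, Cacna1e and Cacna2d3 were higher in central axons, and Cacnb3 and Cacna1e were lower in peripheral axons. The central count was 2 of 10 genes higher and 0 lower, beside 8.63% of all 14480 genes tested called higher and 5.11% called lower. The peripheral count was 0 of 10 genes higher and 2 lower, beside 18.7% of 15467 genes called higher and 12.5% called lower. The low-count filter kept Cacna1e there only through its counts in the somas. With no such filter its call was lost (edgeR adjusted p = 0.0755). Called means an adjusted p under 0.05 in edgeR's quasi-likelihood test, with Benjamini-Hochberg adjustment over all genes tested. The median log2 fold change of the 10 genes was -0.15 for central axons, beside 0.05 over all genes, and -1.16 for peripheral axons, beside -0.03 over all genes. With 1 spread estimated over all 4 groups of batch 1, neither central gene was called (adjusted p = 0.314 for Cacna1e and 1 for Cacna2d3), and only 15 genes in all passed the test in place of 1990.

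**Figure D2:**
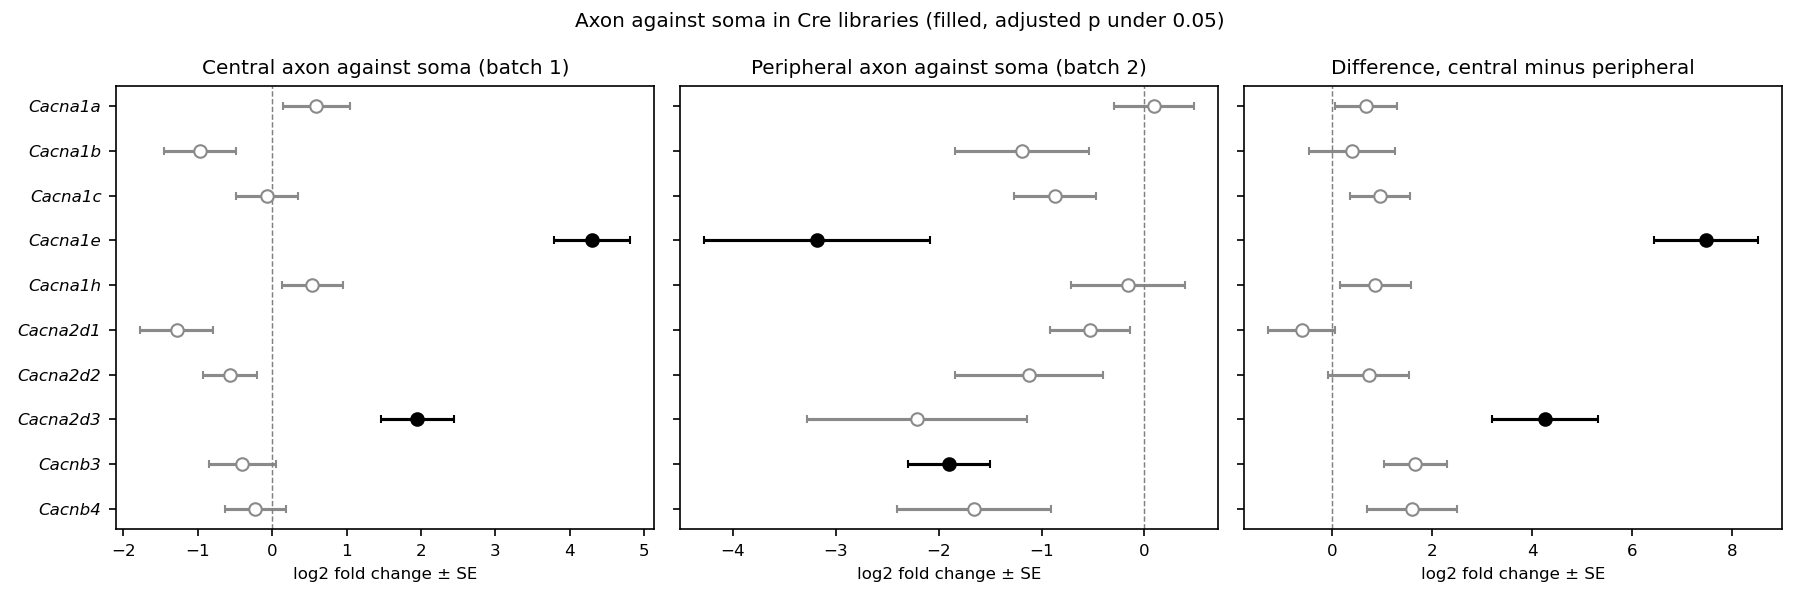
Log2 fold change ± SE of the 10 genes in Cre libraries for central axon against soma, peripheral axon against soma and the difference of both, with filled points for an adjusted p under 0.05. Cacna1e is at 4.30 in the first panel and -3.18 in the second, and Cacna2d3 at 1.95 and -2.21.

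Cacna1e (chr1:154390731-154884501, minus strand, mm10) encodes the pore of the R-type channel. In the central axon Cre libraries it measured 28.9, 85.0, 49.4 and 126 CPM (replicates 1 to 4). In the Cre somas of batch 1 it measured 1.55, 4.19, 2.67 and 1.98 CPM. Every central axon library was above every soma library, and the means of 72.3 ± 42.6 and 2.60 ± 1.15 CPM (SD, n = 4 each) differed 27.8-fold. The log2 fold change was 4.30 (SE 0.51, edgeR quasi-likelihood adjusted p = 0.000289), and it kept that call without any one library, at values from 3.86 to 4.57. The central axon controls measured 143, 184, 31.4 and 61.2 CPM, with a mean of 105 ± 71.0 CPM (SD, n = 4), so the RNA was also recovered where no ribosome was tagged. The batch 1 soma controls held 0 to 3 counts each. Between central axon Cre and control the log2 fold change of Cacna1e was -0.52 (SE 0.65, edgeR adjusted p = 1), and the groups overlapped.

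In peripheral axons Cacna1e was near the limit of detection. It had 10 counts in Cre replicate 2 (0.664 CPM, interval 0.361 to 1.22), the deepest library of that group, and 0 counts in the other Cre libraries, which allows up to 0.732 CPM. The Cre somas of batch 2 measured 2.50, 2.63, 1.53 and 1.20 CPM, all above the peripheral libraries. The log2 fold change was -3.18 (SE 1.10, edgeR adjusted p = 0.0461). That call was lost without peripheral Cre replicate 3 (adjusted p = 0.0584) or 4 (0.0738) and without any one of the 4 somas (0.0904 to 0.107), with values between -3.45 and -2.87. Without peripheral Cre replicate 2, which leaves that group at 0 counts, the fitted value was -7.59 and depends on the prior count. Of the 3 peripheral controls, 2 had 0 counts and the other had 9 (1.77 CPM).

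Cacna1b (chr2:24603887-24763152, minus strand) encodes the pore of the N-type channel, a main carrier of release at nociceptor terminals. In central axon Cre libraries it measured 120, 123, 30.7 and 107 CPM. The Cre somas of batch 1 measured 70.1, 111, 97.4 and 292 CPM. In peripheral axon Cre libraries it measured 3.16, 71.3, 24.9 and 32.8 CPM, against 53.2, 103, 52.4 and 65.8 CPM in the Cre somas of batch 2. The ranges overlapped on both sides, and neither log2 fold change passed the test (-0.97, SE 0.48, edgeR adjusted p = 0.201 for central and -1.19, SE 0.65, adjusted p = 0.184 for peripheral axons). Without peripheral Cre replicate 2 the peripheral value was -2.02 (edgeR adjusted p = 0.0376).

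Cacna1a (chr8:84388440-84640246, plus strand), the P/Q-type pore, averaged 109 ± 49.9 CPM in central axon Cre libraries, against 54.1 ± 43.3 CPM in the Cre somas of batch 1 (SD, n = 4). One soma, replicate 4, was at 118 CPM while the others lay between 25.3 and 41.1 CPM. The log2 fold change was 0.59 (SE 0.45, edgeR adjusted p = 0.422), and without that soma it was 1.22 (adjusted p = 0.0388). In peripheral axons Cacna1a averaged 27.0 ± 11.0 CPM beside 22.1 ± 5.44 CPM in the somas, with a log2 fold change of 0.09 (SE 0.39, edgeR adjusted p = 0.880) whose sign turned under median-ratio scaling (-0.03). Reads over 3.81% of its exon length could also belong to a gene on the other strand, since the counting of strand is not given.

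Cacna1c (chr6:118587240-119196418, minus strand), an L-type pore, varied least among the α1 genes in Cre somas, at 24.9 ± 5.76 CPM in batch 1 and 23.7 ± 2.30 CPM in batch 2 (SD, n = 4 each). Central axon Cre libraries averaged 31.7 ± 13.8 CPM, with a log2 fold change of -0.07 (SE 0.42, edgeR adjusted p = 0.937) that turned to 0.36 when libraries were scaled by their totals alone. Peripheral axon Cre libraries lay between 7.54 and 20.1 CPM, below all 4 somas, which lay between 20.2 and 25.1 CPM. That log2 fold change was -0.87 (SE 0.40, edgeR adjusted p = 0.124), and DESeq2 called it at -0.98 (adjusted p = 0.0322).

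Cacna1h (chr17:25374285-25433783, minus strand), a T-type pore and a known marker of low-threshold sensory neurons, averaged 35.2 ± 9.36 CPM in central axon Cre libraries, against 18.1 ± 7.09 CPM in the Cre somas of batch 1 (SD, n = 4). In batch 2 it averaged 14.7 ± 8.74 CPM in peripheral axons and 15.0 ± 5.77 CPM in somas. The log2 fold changes were 0.54 (SE 0.41, edgeR adjusted p = 0.415) for central and -0.16 (SE 0.55, adjusted p = 0.839) for peripheral axons. The peripheral sign turned without peripheral Cre replicate 4 (0.06) or soma replicate 6 (0.09).

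The α2δ genes are shown with the 250 bases before their RefSeq start for the pair that moved apart in central axons, Cacna2d3, which was higher than in somas, and Cacna2d1, which was not. Both windows (RefSeq, GRCm38.p6) are printed 5′ to 3′ on the gene's strand, with GC boxes (GGGCGG, or CCGCCC on the other strand, overlaps counted) in capitals. The window of Cacna2d3 is chr14:29721865-29722114 on the minus strand and that of Cacna2d1 is chr5:15934441-15934690 on the plus strand.
Cacna2d3: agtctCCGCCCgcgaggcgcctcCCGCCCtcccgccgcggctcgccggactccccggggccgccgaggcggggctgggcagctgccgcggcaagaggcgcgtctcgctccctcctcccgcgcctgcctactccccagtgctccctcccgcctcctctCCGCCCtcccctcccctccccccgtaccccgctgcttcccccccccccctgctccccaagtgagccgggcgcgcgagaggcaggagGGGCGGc
Cacna2d1: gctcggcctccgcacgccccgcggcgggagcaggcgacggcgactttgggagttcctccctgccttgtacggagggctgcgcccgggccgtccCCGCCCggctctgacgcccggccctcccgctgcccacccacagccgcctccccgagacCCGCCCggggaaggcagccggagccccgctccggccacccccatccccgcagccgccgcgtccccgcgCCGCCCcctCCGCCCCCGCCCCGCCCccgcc
The window of Cacna2d3 holds 4 GC boxes and 80.0% G and C, and that of Cacna2d1 holds 6 and 82.4%, so these letters do not set the pair apart. A GC box was found in 7 of 13 windows of 8 of the 10 genes, and in 32.7% of all 32851 promoter windows of that length. A TATA box (TATAAA) was in none of the 13 windows and in 12.4% of all.

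Cacna2d3 (chr14:28904943-29721864, minus strand) encodes α2δ-3, a subunit tied to heat pain in animal models. In central axon Cre libraries it measured 20.5, 65.4, 27.9 and 48.1 CPM. In the Cre somas of batch 1 it measured 4.45, 13.9, 4.83 and 7.67 CPM. No axon library fell to the soma range, and the means of 40.5 ± 20.3 and 7.72 ± 4.38 CPM (SD, n = 4 each) differed 5.24-fold. The log2 fold change was 1.95 (SE 0.49, edgeR quasi-likelihood adjusted p = 0.0199). The call was lost without central Cre replicate 2 (1.61, adjusted p = 0.0837) or 4 (1.8, 0.0685) or without soma Cre replicate 1 (1.76, 0.0596). The central axon controls measured 73.9, 43.0, 0 and 25.8 CPM, and 3 of these 4 were within the Cre range or above it.

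In peripheral axon Cre libraries Cacna2d3 had 0 counts in replicates 1 and 3 and measured 2.06 and 2.25 CPM in replicates 2 and 4. The Cre somas of batch 2 were within a narrow band, at 4.74, 4.43, 4.48 and 4.86 CPM. All peripheral libraries were below all somas, yet the log2 fold change of -2.21 (SE 1.07) did not pass the test (edgeR adjusted p = 0.136), whereas DESeq2 called it at -2.36 (adjusted p = 0.0475). All 3 peripheral controls had 0 counts, which allows up to 0.660 CPM.

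Cacna2d1 (chr5:15934691-16374511, plus strand) encodes α2δ-1, the gabapentin target whose level in sensory neurons is known to rise after nerve injury. Central axon Cre libraries measured 67.5, 50.1, 17.4 and 23.2 CPM and the Cre somas of batch 1 measured 53.1, 70.3, 41.4 and 137 CPM. The ranges overlapped, and the log2 fold change of -1.28 (SE 0.49) missed the threshold (edgeR adjusted p = 0.0965). It passed with DESeq2 (-1.26, adjusted p = 0.0480), with no filter on low counts (-1.28, 0.0472) and without central Cre replicate 1 (-1.85, 0.0205). Peripheral axon Cre libraries measured 66.4, 57.9, 12.7 and 42.0 CPM beside 51.7, 56.1, 49.9 and 61.6 CPM in the somas of batch 2. There the log2 fold change was -0.53 (SE 0.39, edgeR adjusted p = 0.327), so of the α2δ genes Cacna2d1 had the smallest difference between peripheral axons and somas in these libraries.

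Cacna2d2 (chr9:107399612-107529343, plus strand), which encodes α2δ-2, averaged 36.9 ± 14.0 CPM in central axon Cre libraries, against 40.5 ± 8.43 CPM in the somas beside them (SD, n = 4). Peripheral axon Cre libraries ranged from 1.22 to 26.1 CPM and the Cre somas of batch 2 from 13.5 to 33.9 CPM. The log2 fold changes were -0.57 (SE 0.36, edgeR adjusted p = 0.316) and -1.12 (SE 0.72, adjusted p = 0.254). Without peripheral Cre replicate 2 the latter was -2.14 (edgeR adjusted p = 0.0400).

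Cacnb3 (chr15:98630840-98644529, plus strand) is a neuronal β subunit that partners N-type channels. Central axon Cre libraries measured 467, 300, 444 and 177 CPM and the Cre somas of batch 1 measured 449, 433, 348 and 128 CPM. Peripheral axon Cre libraries measured 50.8, 175, 139 and 87.2 CPM, against 433, 477, 264 and 361 CPM in the Cre somas of batch 2. The central ranges coincided, with a log2 fold change of -0.40 (SE 0.45, edgeR adjusted p = 0.600) that was 0.03 under scaling by library totals. Every peripheral library was below every soma, and the means of 113 ± 54.9 and 384 ± 92.7 CPM (SD, n = 4 each) differed 3.39-fold. That log2 fold change was -1.90 (SE 0.40, edgeR adjusted p = 0.00477) and kept its call without any one library, at -2.29 to -1.73. The peripheral controls measured 163, 44.7 and 77.4 CPM, so they overlapped the Cre axons. Schwann cell markers, summed over 6 genes, moved with axon tissue, at 6740 to 17400 CPM in peripheral axon Cre libraries and 307 to 585 CPM in the somas of batch 2. Fibroblast markers, also summed over 6 genes, moved the same way, and nociceptor markers were lower in the axons, by a median log2 fold change of -1.73. The part of these cell types in the result was not tested.

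Cacnb4 (chr2:52428320-52676831, minus strand), a β subunit known from inherited epilepsy and ataxia, averaged 33.7 ± 11.0 CPM in central axon Cre libraries, against 29.5 ± 17.8 CPM in the somas of batch 1 (SD, n = 4). Its central log2 fold change was -0.23 (SE 0.41, edgeR adjusted p = 0.747) and turned to 0.20 under scaling by library totals. Peripheral axon Cre libraries measured 0.243, 31.3, 18.5 and 17.2 CPM, all below the batch 2 somas at 52.8, 47.6, 49.9 and 44.6 CPM. The log2 fold change of -1.66 (SE 0.75) did not pass the test (edgeR adjusted p = 0.112). It passed without the low replicate 1 (-1.35, adjusted p = 0.00555) and with DESeq2 (-1.8, 0.0443). A gene on the other strand covers 16.0% of the exon length of Cacnb4, and those reads cannot be told apart here.

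In peripheral axons, then, 5 of the 10 genes had all Cre axon libraries below all Cre somas (Cacna1c, Cacna1e, Cacna2d3, Cacnb3 and Cacnb4), beside 20.1% of all genes tested. DESeq2 called these 5 lower and no other member, beside 19.1% of all genes that it called lower. The low-count filter kept Cacna1e and Cacna2d3 only through their counts in the somas, where they were higher. Markers of nociceptors were lower along with these 5 genes. All 9 had a negative log2 fold change, and edgeR called 7 of the 9 lower, beside 12.5% of all genes. The median of these markers was -1.73, against -1.16 for the 10 channel genes. The sum of these markers was 1110 to 4560 CPM in the Cre axons and 7670 to 9370 CPM in the somas, and its part in the channel values was not tested. In central axons 2 of 10 had all axon libraries above all somas, beside 13.5% of all genes tested.

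The difference between the central and the peripheral change was tested in 1 fit over the 4 Cre groups. Cacna1e differed by 7.47 (SE 1.03, edgeR adjusted p = 0.000260) and Cacna2d3 by 4.26 (SE 1.06, adjusted p = 0.0132), both higher on the central side. Without peripheral Cre replicate 2 the fitted difference of Cacna1e was 11.93, and without any other library it was between 7.08 and 7.73. The 2 called genes of 10 stand beside 7.20% of 16725 genes called higher and 5.88% called lower. Cacnb3 had a difference of 1.66 (SE 0.63, edgeR adjusted p = 0.0855), and it passed under scaling by library totals (1.79, 0.0457), with no low-count filter (1.73, 0.0432) and without peripheral Cre replicate 2 (1.98, 0.0435). The other genes gave 1.60 for Cacnb4, 0.96 for Cacna1c, 0.86 for Cacna1h, 0.73 for Cacna2d2, 0.68 for Cacna1a, 0.40 for Cacna1b and -0.61 for Cacna2d1, with edgeR adjusted p from 0.251 to 0.813. The median of the 10 was 0.91, beside 0.26 over all genes. This fit uses the same libraries as both axon comparisons, and axon type and batch differ together, so the batches enter only through their own somas. With 1 spread over all 8 groups neither Cacna1e (7.67, adjusted p = 0.240) nor Cacna2d3 (4.30, 0.595) was called.

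Most spinal cord markers moved with these 2 genes. Of 9 spinal neuron markers, 7 were called higher and 1 lower (-1.47) in central axons than in somas of Cre libraries. That stands beside 8.63% and 5.11% of all genes. All 9 spinal neuron markers (Gad1, Gad2, Slc32a1, Slc6a5, Chat, Slc5a7, Pax2, Lmx1b and Tlx3) exceeded 3 counts in every central axon Cre library, and their sum was 274 to 470 CPM there and 272 to 741 CPM in the controls. In the Cre somas of batch 1 the sum was 183 to 274 CPM, but Gad2, Slc32a1, Slc6a5 and Chat were at 0 in all 4 libraries. In peripheral axon Cre libraries the sum was 16.5 to 59.3 CPM, with the same 4 genes at 0. Astrocyte markers, summed over 6 genes, ran from 296 to 1350 CPM in central axon Cre libraries, against 1.98 to 32.0 CPM in the Cre somas of batch 1. Within the central axon Cre group the sum of the 9 spinal neuron markers was 274, 470, 353 and 397 CPM in replicates 1 to 4. Cacna1e was lowest in replicate 1 and highest in replicate 4, and Cacna2d3 was lowest in replicate 1 and highest in replicate 2. The sum reached 183 to 274 CPM in Cre somas too, so it is not particular to spinal cord. The part of spinal cord RNA in the result was not tested.

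**Figure D3:**
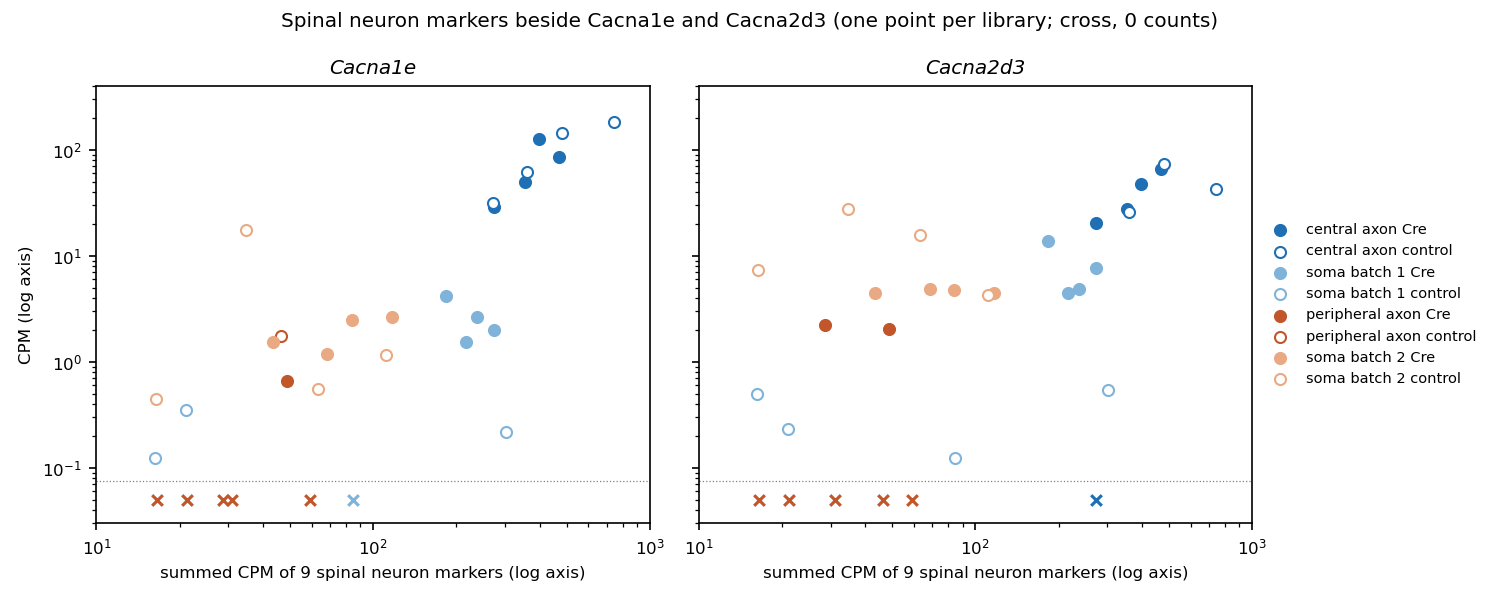
Cacna1e (left) and Cacna2d3 (right) in CPM against the summed CPM of the 9 spinal neuron markers, both on log axes, one point per library, filled for Cre and open for control, with a cross for 0 counts. Central axon libraries of both genotypes lie at 272 to 741 CPM of markers, and their Cre and control points lie among each other.

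Next, Cre libraries were compared with the controls of the same tissue, which asks how far a level exceeds what the pulldown recovers without a tag. No member gene was called in any of the 4 comparisons. In central axons 0 of 10 genes were called, beside 0.0141% of 14189 genes in either direction, and 0 had an unadjusted p under 0.05, beside 4.82%. In peripheral axons 0 of the 8 genes tested were called, beside 0% of 13970 genes, and 0 had an unadjusted p under 0.05, beside 3.68%. Cacna1e and Cacna2d3 did not pass the low-count filter there. In somas 0 of 10 genes were called in batch 1, beside 4.42% of 11667 genes, and 0 of 10 in batch 2, beside 0% of 15280 genes, with 1 gene under an unadjusted p of 0.05 in each, beside 15.0% and 16.4%. DESeq2 called 0 members in each of these comparisons, beside 1.52% of all genes in central axons, 0.193% in peripheral axons, 16.3% in batch 1 somas and 7.59% in batch 2 somas. The shares of all genes called in somas turned on single controls. In batch 1 edgeR called 24.3% of genes without control replicate 3 and 0% without any one of the other controls, and in batch 2 it called 11.7% without control replicate 5 and 3.12% without control replicate 7.

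The largest values in central axons were 0.69 for Cacna1c, 0.67 for Cacnb3 and -0.76 for Cacna2d1, each with an edgeR adjusted p of 1. Cacnb3 averaged 347 ± 136 CPM in Cre and 232 ± 163 CPM in control axons (SD, n = 4), and Cacna2d1 39.5 ± 23.5 and 70.9 ± 40.9 CPM. In peripheral axons Cacna1h measured 10.5, 19.2, 24.4 and 4.85 CPM in Cre and 1.54, 4.93 and 0 CPM in control libraries. The highest control was just above the lowest Cre library, and the log2 fold change of 2.77 (SE 1.67) had an edgeR adjusted p of 1. Cacna2d1 and Cacnb3 gave -0.61 and 0.40 there, also with an adjusted p of 1.

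In the somas of batch 1 Cacna2d1 measured 128, 163, 365 and 33.4 CPM in control replicates 1, a, 3 and b, against 41.4 to 137 CPM in Cre. Its log2 fold change was -5.23 (SE 2.07, edgeR adjusted p = 0.280), and -0.69 without control replicate 3, the library with the small scaling factor. Cacna1e and Cacna2d3 were in every Cre soma, at 1.55 to 4.19 and 4.45 to 13.9 CPM, while the controls held at most 3 counts of Cacna1e and 5 counts of Cacna2d3. Scaled by library totals, the mean of Cacna1e was at least 7.33-fold higher in Cre, taking 3 counts per control library as the floor. Cacna2d3 averaged 7.72 CPM in Cre and 0.349 CPM in control libraries. The bound does not carry over to the fit, which used a TMM factor of 0.0547 for control replicate 3. With 1 library left out, the fitted log2 fold change of Cacna1e ran from 1.02 to 3.73. The fitted log2 fold change of Cacna2d3 was 1.17 (SE 1.65, edgeR adjusted p = 0.738). Without control replicate 3 it was 4.48 (adjusted p = 0.00998) and Cacna1e was called as well (adjusted p = 0.0330), and scaling by library totals also called both (0.0109 and 0.00671). The low-count filter kept both genes in these fits only through their counts in the Cre somas, where they were higher. With no such filter and all libraries kept, no member was called. Cacna1h gave 1.86 (SE 1.77, edgeR adjusted p = 0.599).

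In the somas of batch 2 Cacnb4 measured 47.0, 113, 220 and 143 CPM in control replicates 5 to 8 and 44.6 to 52.8 CPM in Cre. Its log2 fold change was -1.13 (SE 0.39, edgeR adjusted p = 0.184), and -1.39 (adjusted p = 0.0211) without control replicate 5, the library nearest to the Cre somas. Cacnb3 went the other way, at 452, 302, 43.0 and 97.9 CPM in controls and 264 to 477 CPM in Cre, with a log2 fold change of 1.00 (SE 0.58, edgeR adjusted p = 0.424). Cacna2d3 gave -1.28 (SE 0.75, edgeR adjusted p = 0.427), with controls at 4.31, 27.9, 15.8 and 7.31 CPM. Markers of large-diameter sensory neurons, summed over 6 genes, came to 384 CPM in control replicate 5 and 1770 to 2170 CPM in the other controls. In the Cre somas they ran from 245 to 356 CPM, and their part in the values was not tested. Control replicate 5 also held 18.1 M counts, against 3.6 M to 4.52 M in the other controls.

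The axon and soma controls, compared with each other, gave the background of the axon comparisons. In central axons 0 of 9 tested genes were called, beside 0% of 9202 genes, with 1 under an unadjusted p of 0.05 (beside 12.4%) and 1 called by DESeq2 (beside 4.26%), which was Cacna1e. The low-count filter kept Cacna1e in this comparison only through its counts in the axon controls, where it was higher. Cacna1e averaged 105 ± 71.0 CPM in axon controls. Scaled by library totals, its mean was at least 296-fold higher than in soma controls, taking 3 counts per soma library as the floor. The bound does not carry over to the fit, which used a TMM factor of 0.3 for soma control replicate 3. No tested member had a fitted log2 fold change above 8.08. Cacna2d3, which lay between 0 and 73.9 CPM in axon controls and averaged 0.349 ± 0.203 CPM in soma controls (SD, n = 4), did not pass the low-count filter. Cacna1h gave 2.92 (SE 2.34, edgeR adjusted p = 0.714) and Cacna2d1 -2.81 (SE 1.43, adjusted p = 0.442). With 1 library left out the former ran from 2.08 to 4.44 and the latter from -6.22 (without soma control replicate b) to -0.82 (without soma control replicate 3). The direction of Cacna1e and Cacna2d3 was thus that of the Cre libraries.

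In peripheral axons 0 of 9 tested genes were called between axon and soma controls, beside 0.0802% of 13715 genes, with 2 under an unadjusted p of 0.05 (beside 9.78%) and 2 called by DESeq2 (beside 4.43%), Cacna1b and Cacna2d3. The low-count filter kept Cacna2d3 in this comparison only through its counts in the soma controls, where it was higher. The log2 fold changes were -2.10 for Cacna1b (SE 0.65, edgeR adjusted p = 0.268), -2.46 for Cacna2d2 (SE 1.49, 0.673) and -1.37 for Cacnb3 (SE 0.79, 0.642). Cacna2d3 was at 0 counts in the 3 axon controls, so its mean was at least 24.2-fold lower than in soma controls, taking 3 counts per axon library as the floor. All axon controls were below all soma controls for Cacna1b, Cacna2d2 and Cacna2d3, which is 3 of 9 genes beside 8.47% of all genes tested. The median of the 9 was -2.10, beside -0.11 over all genes.

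Levels were also compared between genes on a length scale (CPM per kb of exon). Cacnb3 led in every group, from 23.7 ± 15.3 CPM per kb in peripheral axon controls (SD, n = 3) to 95.6 ± 23.1 in the Cre somas of batch 2 (n = 4), and in all 4 Cre groups its lowest library was above the highest library of the next gene. In the Cre somas of batch 1 the order went on with Cacna1b at 14.4, Cacna2d1 at 6.07, Cacna2d2 at 5.10 and Cacna1a at 4.74 CPM per kb, whose neighbours overlapped in range. Cacna2d3 at 0.886 and Cacna1e at 0.103 CPM per kb closed it, and these 2 did not overlap. In central axon Cre libraries Cacna2d3 stood at 4.64 and Cacna1e at 2.87 CPM per kb, and the ranges of all neighbours below Cacnb3 overlapped. Gene length was the union of annotated exons, so isoforms that use fewer exons read low on this scale.

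The make-up of each subunit class was taken per length over all its family members. In the Cre somas Cacna1b made up 60.9% ± 6.01 of the α1 level in batch 1 and 57.6% ± 3.82 in batch 2 (SD, n = 4 each). In Cre axons its share was 25.7% ± 9.98 in central and 27.2% ± 16.8 in peripheral libraries, and no axon library reached the lowest soma of its batch (38.7% against 55.6%, and 45.2% against 53.0%). Shares sum to a whole, and in central axons Cacna1g (16.1%), Cacna1d (7.93%) and Cacna1e (7.68%) held more than in the somas (0.170%, 1.34% and 0.548%). In peripheral axon Cre libraries Cacna1s (13.4%) and Cacna1d (9.94%) held more than in the Cre somas of batch 2 (0.0146% and 1.87%). Cacna2d3 made up 37.7% ± 12.9 of the α2δ level in central axon Cre libraries, 7.43% ± 3.47 in the somas beside them and 1.99% ± 2.46 in peripheral axons. Cacna2d1 made up 70.1% ± 18.5 in peripheral axon Cre libraries and 25.3% ± 12.6 in central ones. Cacnb3 held 69.0% to 77.4% of the β level on average in all 4 Cre groups. Control libraries gave Cacna1b 35.0% in central axons, 37.3% in batch 1 somas, 46.8% in peripheral axons and 61.7% in batch 2 somas. Central axon controls held Cacna1g (13.0%), Cacna1e (10.5%), Cacna1d (3.66%) and Cacna2d3 (22.7%). Peripheral axon controls held Cacna1s (28.9%, from 0.0% to 70.3%) and Cacna2d1 (85.0%).

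**Figure D4:**
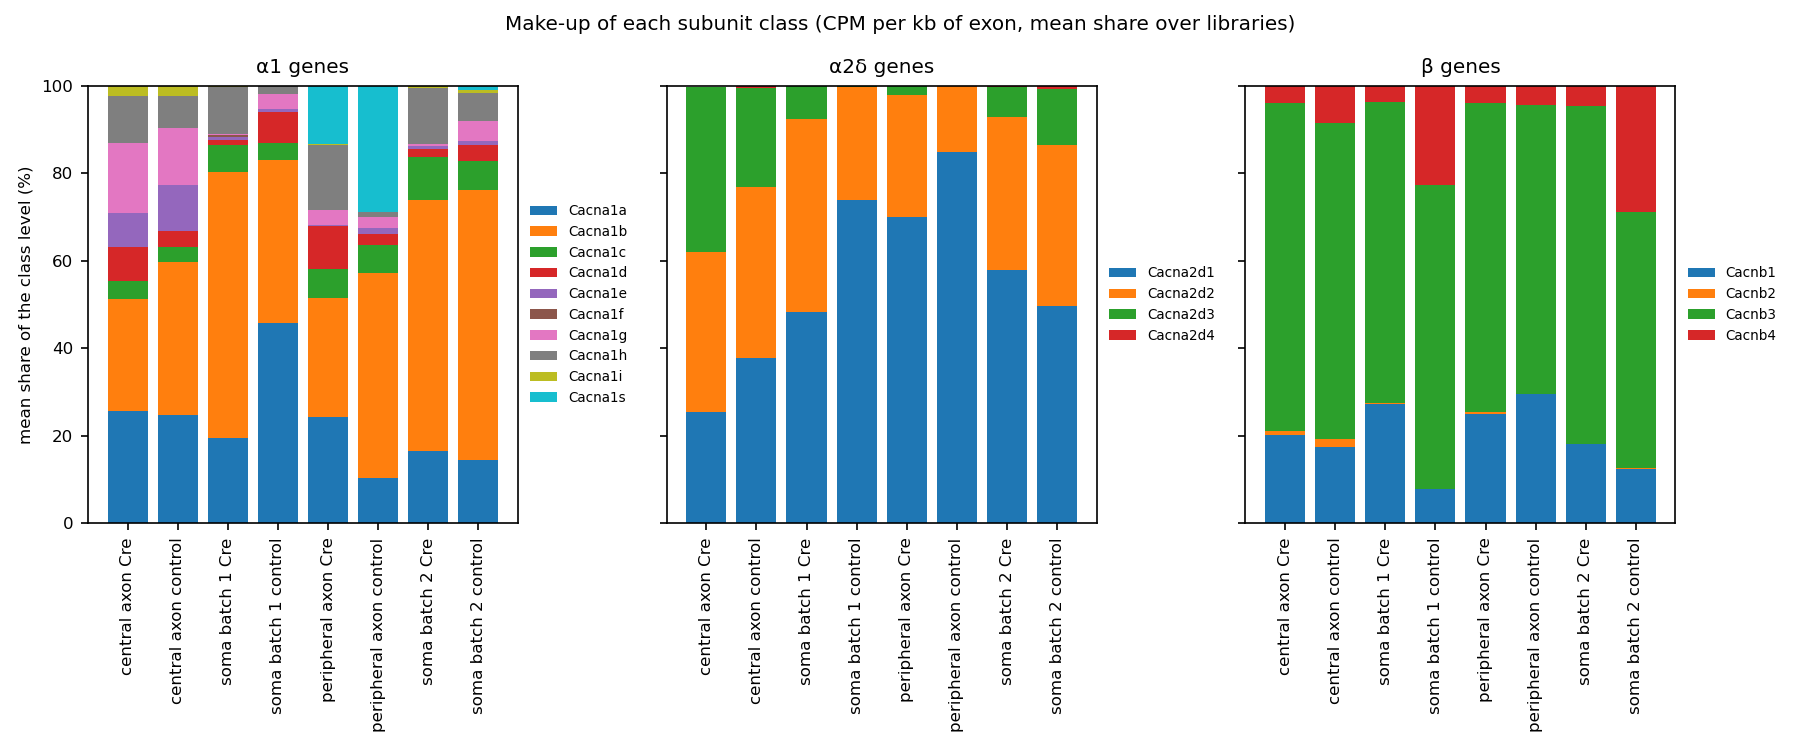
Mean share (%) of each gene in the summed CPM per kb of its subunit class, for α1, α2δ and β genes in the 8 groups. Cacna1b fills 60.9% and 57.6% of the α1 bar in the Cre somas and 25.7% and 27.2% in the Cre axons, while Cacnb3 fills most of the β bar in every group.

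The rest of the family, 16 further subunit genes, was read beside the members. In central axon Cre libraries 6 of the 11 tested were higher than in somas and 0 lower, beside 8.63% and 5.11% of all genes. They were Cacng4, Cacng2 and Cacng3, which encode regulators of AMPA receptors, Cacna1g, a T-type pore, Cacna1d, an L-type pore, and Cacnb2. Cacng4 averaged 120 ± 42.5 and 10.9 ± 5.87 CPM in axons and somas (SD, n = 4), and in the axon controls 231 ± 77.4 CPM. Cacna1g averaged 60.6 ± 36.6 and 0.341 ± 0.682 CPM, and 41.6 ± 32.9 CPM in the axon controls. The list's median log2 fold change was 2.90, beside 0.05 over all genes. In peripheral axons 3 of 8 tested were higher (Cacng1, Cacna1s and Cacna1d) and 2 lower (Cacnb1 and Cacng3), beside 18.7% and 12.5% of all genes. Cacna1s and Cacng1 encode the skeletal muscle channel, and Cacng1 averaged 20.9 ± 8.29 CPM in peripheral axon Cre libraries (SD, n = 4) and 102 ± 81.9 CPM in the controls (n = 3). Skeletal muscle markers, summed over 6 genes, ran from 624 to 2450 CPM in these Cre axons and from 15.5 to 80.2 CPM in the somas, and their part was not tested. Between axon and soma controls of batch 2, Cacng1 was the only one of 8 tested that was called, and it was higher.

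Among 20 partners and regulators of the channels, 2 of 18 tested were higher in central axons than in somas and 0 lower, beside 8.63% and 5.11% of all genes. They were Lrp1 (log2 fold change 3.05, SE 0.53, edgeR adjusted p = 0.00371), a receptor that carries α2δ to the membrane, and Stac2 (1.94, SE 0.56, 0.0358), an adaptor of L-type channels. Between central axon Cre and control libraries 0 of 17 tested were called, beside 0.0141% of all genes. There 6 were positive and 11 negative, with a median log2 fold change of -0.21, beside 0.11 over all genes. The part of spinal cord RNA in these values was not tested. In peripheral axons 6 of 19 tested were higher and 4 lower, beside 18.7% and 12.5%. Thbs4 (7.04) and Thbs2 (4.87), thrombospondins that bind α2δ-1, Rem1 (3.97), a small GTPase that inhibits channels, and Lrp1 (1.75) were among those higher. All 6 fibroblast markers and all 4 endothelial markers were also called higher in this comparison. Fibroblast markers summed to 3820 to 6690 CPM in the Cre axons and 173 to 364 CPM in the somas, and their part in these values was not tested. Calm2 (-1.96), which encodes the calcium sensor calmodulin, was among those lower. The list's median log2 fold changes against the somas were -0.27 in central and -1.02 in peripheral axons.

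Of 20 calcium pumps, exchangers and store channels, 6 of 19 tested were higher in central axons and 0 lower, beside 8.63% and 5.11% of all genes, namely Ryr3, Slc8a1, Ryr1, Slc8a3, Atp2b3 and Itpr2, with log2 fold changes from 2.93 to 4.55. Between central axon Cre and control libraries 0 of 19 tested were called, beside 0.0141% of all genes. There 7 were positive and 12 negative, with a median of -0.39, beside 0.11 over all genes. The part of spinal cord RNA here was not tested either. In peripheral axons 4 of 20 were higher (Itpr3, Itpr2, Ryr1 and Stim2) and 0 lower, from 1.47 to 5.30, and the count of those higher was near the 18.7% of all genes. The list's median log2 fold changes against the somas were 0.28 and 0.30, beside 0.05 and -0.03 over all genes. Itpr2 and the muscle calcium release channel Ryr1 were higher in both central and peripheral axons.

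The genes most like Cacna1b, Cacna1h and Cacna2d1 over the 31 libraries were sought by Pearson's r of log2 CPM among 12561 genes, as a description, since the libraries share tissues, batches and depth. Cacna1b was most like Srcin1 (r = 0.930), Syp (0.859), which encodes the synaptic vesicle protein synaptophysin, and Spock2 (0.855), and its nearest family member was Cacna2d2 (0.838). Cacna1h was most like Prpf40b (0.898), Ankrd45 (0.891) and Plppr2 (0.878). For Cacna2d1 no gene came above 0.624, the value of Larp1, followed by Npc2 (0.611) and Zfhx3 (0.601).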

How the data were processed

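Per the file headers, the authors deposited raw read counts per gene for 31 ribosome pulldown libraries in 2 tables of 55536 genes, one for each batch. Reads were aligned with STAR 2.7.2b to mm10, per the submitters' processing notes, and the counting program, its use of strand and its handling of shared reads are not given in the sources used here. All 55536 identifiers matched GENCODE M21 (GRCm38), which gave symbols, positions and exon lengths. In batch 1, 2 soma control columns share a name and are called replicates a and b. Groups came from the labels. Counts were tested in edgeR 4.0.16 (quasi-likelihood, TMM, filterByExpr at 10 counts, only the groups compared), with a Benjamini-Hochberg adjusted p under 0.05 called, and the scripts were tested on simulated data. With the labels' biological replicates as n, p-values measure the spread between these samples.

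The members, marker lists and context lists (other subunits, partners, pumps) were chosen with earlier results of these data known. All 10 members were named in every group, with at most 6 context genes for each list and comparison (smallest adjusted p), and the 3 genes most like Cacna1b, Cacna1h and Cacna2d1 (log2 CPM with a prior count of 2, mean of at least 5 CPM). Alternatives were median-ratio scaling, library totals alone, no low-count filter, 10 counts in every library of a group, DESeq2 1.42.0, all groups in one fit, a replicate block, each library left out, and TMM-normalised CPM for levels. Promoter windows are RefSeq's (GRCm38.p6).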

Additional observations from a re-analysis of the deposited data

Results flagged for a closer look

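The CPM of single libraries was set against the rest of their group in 70 sets of 4 libraries, each being 1 gene in 1 group. For independent, normally distributed values chance alone marks about 1 in 20 sets. These sets share libraries and some hold 0 counts, so that rate need not hold here. In 10 of the 70 sets 1 library stood far from the other 3. Among Cre libraries these were Cacna1a in batch 1 soma replicate 4 (118 CPM), Cacna1b in central axon replicate 3 (30.7 CPM), Cacna1c in batch 2 soma replicate 7 (20.2 CPM) and Cacna1e in peripheral axon replicate 2 (0.664 CPM, the only one of its group above 0 counts). Among controls, batch 1 soma replicate b was high for 3 genes, Cacna1c (84.0 CPM), Cacna2d2 (102 CPM) and Cacnb4 (48.1 CPM). Cacnb4 was high in central axon control replicate 2 (131 CPM), Cacna1e was high in batch 2 soma control replicate 6 (17.5 CPM), and Cacna1h was low in batch 2 soma control replicate 7 (0.833 CPM).

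The change from soma to axon differed between central and peripheral axons for Cacna1e, by 7.47 on the log2 scale (11.93 without peripheral Cre replicate 2), and for Cacna2d3, by 4.26, each past an adjusted p of 0.05 in edgeR's test of the difference. The axon controls differed in the same direction. In central axon controls Cacna1e averaged 4.16 and Cacna2d3 4.09 CPM per kb of exon, and in peripheral axon controls 0.0234 and 0.0. The central tissue included spinal cord, so batch, tissue and axon type cannot be told apart in these values.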

How the results depend on the processing

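The number of the 10 genes called moved with several settings. With all groups of a batch in one fit it was 0 for central axon against soma and 1 for peripheral axon against soma in Cre libraries (2 each in the fit of the groups compared), 2 and 1 in control libraries (0 each), and 0 for the central against the peripheral change (2). In that fit 15 genes in all passed for central axon against soma in Cre libraries, in place of 1990, which is 0.0977% of all genes. The same setting called 8.93% of genes for peripheral axon against soma in Cre libraries and 25.1% for central axon against soma in controls. DESeq2 called 5 for peripheral axon against soma in Cre libraries, beside 39.6% of all genes. In controls it called 1 for central and 2 for peripheral axons, beside 4.26% and 4.43%. For central axon against soma in Cre libraries, DESeq2 and no low-count filter each called 2 higher and 1 lower. Of all genes these settings called 21.7% and 8.27% there, in either direction. Cacnb3 was also called for the central against the peripheral change with library totals alone and with no low-count filter. Library totals alone called 2 in the batch 1 somas and 1 for peripheral axon against soma in Cre libraries, no low-count filter called 1 there, and 10 counts in every library of a group called 1 for central axon against soma in controls. Leaving out 1 library at a time gave 0 to 2 in the batch 1 somas (2 without control replicate 3), 0 to 1 in the batch 2 somas (1 without control replicate 5), 1 to 3 for central and 1 to 4 for peripheral axon against soma in Cre libraries, and 0 to 1 for peripheral axon against soma in controls (1 without control replicate 1). It gave 2 to 3 for the central against the peripheral change and 0 to 0 in the other comparisons. The share of all genes called was 24.3% without batch 1 soma control 3 and 11.7% without batch 2 soma control 5. Over such fits it ran from 5.5% to 18.1% for central and from 20% to 37.6% for peripheral axon against soma in Cre libraries.

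Small log2 fold changes turned sign. For central axon against soma in Cre libraries, Cacna1c was 0.36, Cacnb4 0.20 and Cacnb3 0.03 with library totals alone, and Cacna1c 0.24 and Cacnb4 0.10 with all groups in one fit. With 1 library left out Cacna1c ran from -0.32 to 0.21 (0.21 without central Cre replicate 3, 0.02 without soma Cre replicate 2) and Cacnb4 from -0.42 to 0.18 (0.18 without soma Cre replicate 4). For peripheral axon against soma, Cacna1a was -0.03 with median-ratio scaling and with DESeq2, and -0.06 with no low-count filter and with all groups in one fit. It ran from -0.26 to 0.29 with 1 library left out (-0.26, -0.01, -0.02 and -0.05 without peripheral Cre replicates 2 and 1 and somas 5 and 7), and Cacna1h from -0.59 to 0.09 (0.06 without peripheral Cre replicate 4, 0.09 without soma 6). The cause was not tested. The call of Cacna1e in peripheral axons was also lost with library totals alone (-3.03, edgeR adjusted p = 0.0528), no low-count filter (-3.39, 0.0755) and all groups in one fit (-3.47, 0.231). Library totals alone moved the median log2 fold change of all genes from 0.05 to 0.50 for central axon against soma in Cre libraries and from -0.45 to 0.36 in the batch 1 somas. In all, 729 recomputed log2 fold changes kept direction and call, 18 turned sign, 19 gained a call and 16 lost it.

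With the replicate number as a block, the members called stayed at 2 for central axon against soma in Cre libraries (Cacna1e and Cacna2d3), and at 0 in the other 5 comparisons that share numbers. Same-numbered libraries deviated together by a mean r of 0.128 (-0.0424 to 0.236) for central axon against soma in Cre libraries and 0.0112 to 0.0694 in the Cre against control comparisons, and not every library was nearest to its own number. Peripheral axons and batch 2 somas share no numbers.

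Depth limits the low genes: in peripheral axon Cre libraries 3 counts stand for 0.199 to 0.732 CPM, and Cacna1e averaged 0.166 CPM there.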
